A study of Homo sapiens with 16 samples.

Results

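The NF-kB family was examined through 10 genes, 5 that encode DNA-binding subunits (NFKB1, NFKB2, REL, RELA and RELB) and 5 that encode inhibitors or feedback regulators (NFKBIA, NFKBIB, NFKBIE, NFKBIZ and TNFAIP3). They were found as the probe sets that the array's annotation pairs with these symbols and with no other gene, 19 in all, among the 18132 genes named that way. Of the 19 probe sets, 16 passed the filter on dim signal, and they represented 9 of the 10 genes among the 12495 tested. NFKB2 was the exception. Its single probe set lay below the 40th percentile on all 16 arrays, with means from 3.81 to 3.91 in the 4 groups on the log2 scale. No difference between groups is therefore reported for it.

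All arrays measured HEK293 cells, an established human embryonic kidney line, that had received 500 ng per well of a plasmid expressing NR3C2, the mineralocorticoid receptor (MR). After 24 h of transfection there followed 4 h of treatment with vehicle, with the MR agonist deoxycorticosterone acetate at 100 nM (DOC), with 10 nM phorbol 12-myristate 13-acetate (PMA, an activator of protein kinase C), or with DOC and PMA together, on 4 arrays per treatment that the labels call biological replicates. All 4 groups carried the plasmid, and no group without it was analysed here, so actions of DOC through the transfected MR and through any other receptor cannot be told apart. The values are log2 RMA signals from the Affymetrix PrimeView array, in which RMA (robust multi-array average) makes probe signals comparable across arrays before summarising them per probe set.

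NF-kB dimers are held in the cytoplasm by IkB proteins until a kinase complex, IKK, marks the IkB protein for destruction and lets the dimer enter the nucleus. Protein kinase C reaches IKK through adaptor complexes that contain BCL10 and MALT1, and is one of the classical routes to NF-kB. Several genes of the system are themselves NF-kB targets, so that subunits are replenished and inhibitors restored. NFKBIA is in addition a known target of the glucocorticoid receptor, a close relative of MR.

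For 5 members that rose with PMA, a promoter window with a match, marked in capitals, is shown. The windows of NFKBIB, which also rose, are not shown. Neither is the second window of NFKB1, which held 0 matches to the kB consensus. The second window of NFKBIZ is left out too, and it held 1 match that begins 239 bases before its start. RefSeq start sites on GRCh38.p14 were matched for 8 of the 10 members (14 windows of 250 bases before a start site), and RELB and NFKBIE had no entry. Capitals mark matches to the kB consensus, the published binding motif of NF-kB dimers, searched on both strands. For TNFAIP3 the 30 bases that hold both matches are shown.
NFKB1, chr4:102501109-102501358, plus strand: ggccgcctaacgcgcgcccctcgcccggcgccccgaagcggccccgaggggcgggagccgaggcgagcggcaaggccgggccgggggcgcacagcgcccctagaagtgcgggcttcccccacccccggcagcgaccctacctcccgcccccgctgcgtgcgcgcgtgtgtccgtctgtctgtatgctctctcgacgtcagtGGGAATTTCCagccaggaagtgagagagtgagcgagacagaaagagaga
REL, chr2:60881324-60881573, plus strand: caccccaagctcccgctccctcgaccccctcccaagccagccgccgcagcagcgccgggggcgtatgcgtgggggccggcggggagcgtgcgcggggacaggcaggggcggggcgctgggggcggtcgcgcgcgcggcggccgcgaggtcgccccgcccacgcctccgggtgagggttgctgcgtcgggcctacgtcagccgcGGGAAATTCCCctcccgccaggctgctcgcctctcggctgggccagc
NFKBIA, chr14:35404750-35404999, minus strand: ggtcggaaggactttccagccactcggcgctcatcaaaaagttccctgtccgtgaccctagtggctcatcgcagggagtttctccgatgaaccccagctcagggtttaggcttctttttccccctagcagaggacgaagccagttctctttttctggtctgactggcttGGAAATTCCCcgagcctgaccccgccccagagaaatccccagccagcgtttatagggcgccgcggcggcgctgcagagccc
NFKBIZ, chr3:101827740-101827989, plus strand: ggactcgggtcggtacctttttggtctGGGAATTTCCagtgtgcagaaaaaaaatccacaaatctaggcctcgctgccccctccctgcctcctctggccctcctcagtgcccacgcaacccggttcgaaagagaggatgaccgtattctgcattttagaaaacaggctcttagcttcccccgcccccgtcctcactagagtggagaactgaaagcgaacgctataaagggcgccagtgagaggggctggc
TNFAIP3, chr6:137867188-137867217, plus strand: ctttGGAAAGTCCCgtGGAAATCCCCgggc
The consensus was found in 9 of the 14 windows, against 5.21% of 35116 windows of the same length over all genes. By gene, it was in at least 1 window of 7 members, all of the 8 but RELA. The share of all genes with such a window was not computed. The 7 include NFKB2, whose response to treatment was not tested. In REL the capitals are a pair of matches on opposite strands that overlap by all but their end bases, and in TNFAIP3 they are separate matches that begin 67 and 55 bases before the start. The NFKB1 match begins 49 bases before its start and that of NFKBIA 81 bases before. The AP-1 motif TGANTCA was in 1 of the 14 windows, 1 of NFKBIB, against 6.57% of all windows. The steroid response element is the inverted pair of half-sites that MR and the glucocorticoid receptor bind. A single 13-base form of it was searched, and it was in 0 of the 14, against 0.3275% of all. With so rare a form, 0 is the likely count in 14 windows for any set of genes. Other forms and sites beyond the 250 bases were not searched. Whether NFKBIA or another member has such an element was therefore not tested. A match is a description of the letters, not of binding, and its part in the PMA rises was not tested.

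Arrays of one group correlated at 0.991 to 0.997 over the tested genes, and array medians were 4.91 to 4.96. In 3 arrays, namely replicate 2 of PMA, replicate 1 of DOC and replicate 2 of DOC plus PMA, the deviations from the group means were correlated (0.425 to 0.554 between pairs), and results that rest on them are given without them. The NR3C2 probe set that passed the filter had means of 7.43 in vehicle, 7.38 with DOC, 7.21 with PMA and 7.02 with both. Of 7 genes fixed as features of the line, 5 lay above the array median on every array (VIM at a mean of 12.7), and PAX2 and EYA1 did not. With PMA, 3 of the 7 rose (NEFM by 2.51, KRT8 by 0.79 and KRT18 by 0.77) and 2 fell (EYA1 at −0.85 and NEFL at −0.45). Over all genes 17.7% were called higher with PMA and 29.3% lower. The part of these 7 genes in the members' PMA rises was not tested. None of the 5 kidney tubule markers with a probe set lay above the array median on every array. Of these, 2 were tested, and 0 were called with PMA.

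PMA against vehicle asked what phorbol ester signalling did to the family in the absence of steroid. Of the 9 tested members 7 rose, 0 fell and 2, RELA and NFKBIE, did not pass (limma, adjusted p under 0.05 over all genes). Over all 12495 genes, 17.7% were called higher and 29.3% lower in this comparison, and these shares depended on scaling: of the called genes, 37.6% were higher as deposited, 46.5% with cyclic loess scaling and 52.2% with a common median. The 7 rises were called under both other scalings. The median difference was 1.02 over the members and −0.04 over all genes. In 7 of 9 members the 4 PMA arrays did not overlap the 4 vehicle arrays, as in 42.2% of all genes.

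Among the subunits, RELB, whose dimers with the processed NFKB2 product carry the non-canonical pathway, had the largest difference. RELB signals were 5.41, 5.03, 5.45 and 5.27 in vehicle and 7.24, 6.86, 6.72 and 6.90 with PMA. The lowest PMA array was thus more than 1 log2 unit above the highest vehicle array. RELB rose by 1.64 ± 0.14 (SE) on the log2 scale, or 3.12-fold (adjusted p = 2.75e-08, n = 4 per group).

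NFKB1 encodes a precursor that is processed to a DNA-binding subunit without an activation domain. Its signals were 7.40, 7.31, 7.59 and 7.44 in vehicle and 9.04, 8.97, 8.65 and 8.82 with PMA, with no overlap. NFKB1 rose by 1.43 ± 0.09, or 2.70-fold (adjusted p = 3.54e-10), the smallest p of the family. REL, the c-Rel subunit best known from lymphocytes, ran from 5.26 to 5.75 in vehicle and from 6.32 to 6.53 with PMA, and rose by 0.86 ± 0.10 (adjusted p = 2.81e-06).

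RELA encodes the subunit with the main activation domain of the canonical dimer. Its signals ran from 7.87 to 8.11 in vehicle and were 8.19, 8.55, 8.06 and 8.16 with PMA, so the groups overlapped and PMA replicate 2 stood above the rest. RELA differed by 0.23 ± 0.10 (95% interval 0.03 to 0.44, adjusted p = 0.0570) and did not pass. It passed with the 60th percentile filter (adjusted p = 0.0476), after cyclic loess (0.29, adjusted p = 0.0260), with a common median (0.31, adjusted p = 0.0199), without PMA replicate 3 (0.29, adjusted p = 0.0273) or without DOC replicate 1 (adjusted p = 0.0339). Without PMA replicate 2 the difference was 0.13, and it did not pass.

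Among the inhibitors, TNFAIP3 (A20, a ubiquitin-editing enzyme that shuts off signalling to IKK) had the largest difference. TNFAIP3 signals were 6.10, 5.62, 6.01 and 6.02 in vehicle and 7.72, 7.71, 7.27 and 7.21 with PMA. Every PMA array lay above every vehicle array, and TNFAIP3 rose by 1.54 ± 0.15, or 2.90-fold (adjusted p = 2.30e-07). NFKBIZ, an atypical nuclear IkB protein that acts on transcription of selected targets, ran from 4.71 to 4.96 in vehicle and from 5.90 to 6.37 with PMA. It rose by 1.26 ± 0.11 (adjusted p = 2.93e-08). Its vehicle mean of 4.80 lay below every array median, where a log2 change can be understated.

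NFKBIA encodes IkB-alpha, the IkB protein that is degraded and resynthesised fastest. Its signals were 7.12, 7.29, 6.93 and 7.01 in vehicle and 8.41, 7.96, 8.10 and 7.98 with PMA. All PMA arrays lay above all vehicle arrays, and NFKBIA rose by 1.02 ± 0.12, or 2.03-fold (adjusted p = 1.55e-06). NFKBIB, encoding IkB-beta, rose by only 0.29 ± 0.08, or 1.22-fold (adjusted p = 0.00731), from a vehicle range of 6.90 to 7.09 to a PMA range of 7.14 to 7.34. NFKBIE, encoding IkB-epsilon, did not pass, with a mean of 7.16 ± 0.06 (SD, n = 4) in vehicle and 7.05 ± 0.04 with PMA (difference −0.11, 95% interval −0.24 to 0.02, adjusted p = 0.151). The order of size among IkB genes within one array cannot be read from these signals, since probe sets differ in response.

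**Figure D1:**
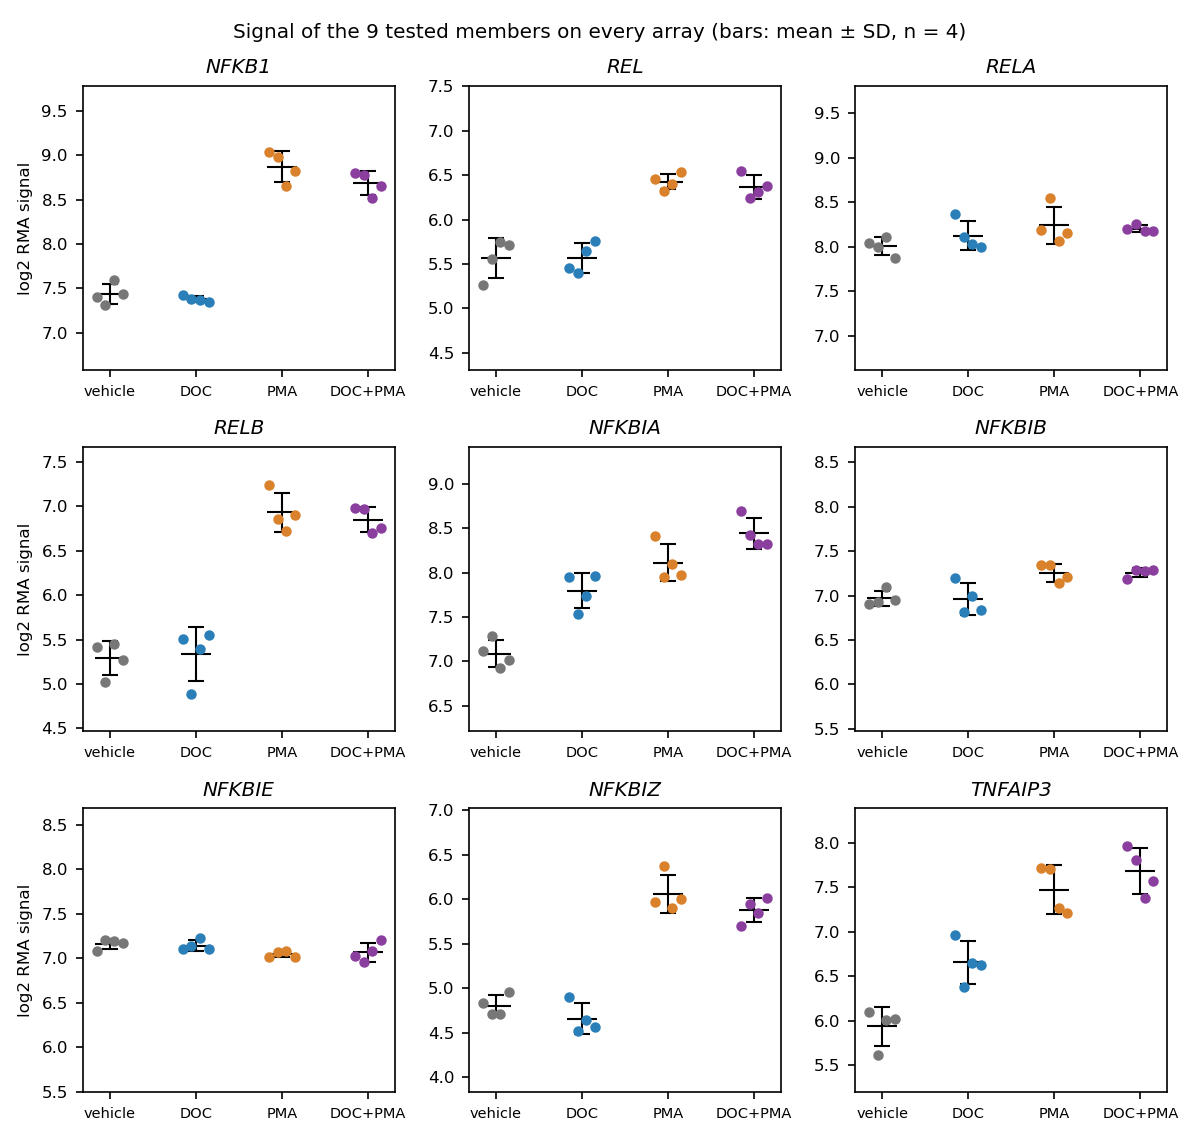
Log2 RMA signal (y axis, the same span in every panel) of the 9 tested members on each of the 16 arrays, by treatment (x axis); points are arrays and bars the mean ± SD of 4. The PMA arrays stand above the vehicle arrays in 7 panels, and in the NFKBIA and TNFAIP3 panels the DOC arrays lie above the vehicle arrays too.

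The probe sets of one gene were compared in a fit to all 28226 single-gene probe sets that passed the filter. For PMA against vehicle 13 of the 16 member probe sets were called higher, and 16.5% of all probe sets were. The 3 NFKBIA probe sets differed by 1.02 ± 0.12, 1.21 ± 0.15 and 1.11 ± 0.13, the REL probe sets by 0.86 and 1.13, and those of TNFAIP3 by 1.54 and 1.19. In NFKBIB 3 of 4 passed, with differences of 0.28 to 0.39, and the fourth, at 0.17 ± 0.09, did not. RELA rests on 1 probe set, since the other 2, with vehicle means of 3.57 and 3.30, were dim on all arrays. Probe sets whose names end in x_at or s_at can share probes with other transcripts. Among them are those used for NFKBIA and NFKBIB (x_at) and for RELA and TNFAIP3 (s_at). The NFKBIA and TNFAIP3 probe sets without such an ending gave the 1.11 and the 1.19 above.

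**Figure D2:**
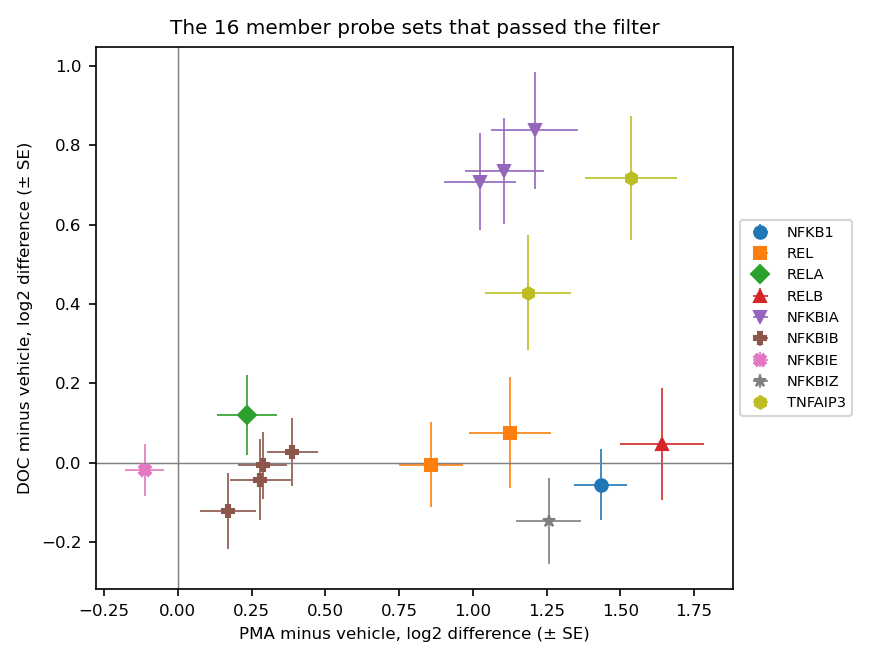
Log2 difference of PMA from vehicle (x axis) against that of DOC from vehicle (y axis), each ± SE, for the 16 member probe sets that passed the filter, with a colour and shape per gene. The 3 NFKBIA and 2 TNFAIP3 probe sets lie between 0.43 and 0.84 for DOC, and the other 11 between −0.15 and 0.12.

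DOC against vehicle asked what the mineralocorticoid did to the family alone. Of the 9 members, 1 rose, NFKBIA, and 8 did not pass. Over all genes 0.12% were called higher, 15 in number. NFKBIA was known to be among the 15 when the members were chosen. NFKBIA signals with DOC were 7.95, 7.54, 7.74 and 7.96, all above the highest vehicle array at 7.29. The difference was 0.71 ± 0.12, or 1.63-fold (95% interval 0.46 to 0.96, adjusted p = 0.0139). The call was lost without vehicle replicate 3 (0.66, adjusted p = 0.0879), vehicle replicate 4 (0.68, adjusted p = 0.0691), DOC replicate 1 (0.66, adjusted p = 0.0629) or DOC replicate 4 (0.65, adjusted p = 0.0737), and without the 3 arrays that deviated together (0.66, adjusted p = 0.116). In the fit to probe sets the 3 NFKBIA probe sets were at 0.71 (adjusted p = 0.0353), 0.84 (adjusted p = 0.0382) and 0.73 (adjusted p = 0.0501).

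TNFAIP3 signals with DOC were 6.97, 6.38, 6.65 and 6.63, above all 4 vehicle arrays. TNFAIP3 differed by 0.72 ± 0.15, close in size to NFKBIA, but from a wider spread (95% interval 0.40 to 1.04), and it did not pass (adjusted p = 0.137). Its second probe set was at 0.43 ± 0.14. DOC and vehicle arrays did not overlap in 2 of the 9 members, NFKBIA and TNFAIP3, and in 2.33% of all genes.

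The other 7 members showed DOC differences from −0.15 to 0.12, none past the threshold. Of the subunits, NFKB1 was at −0.06 (95% interval −0.24 to 0.13), REL at −0.01 (−0.23 to 0.22) and RELB at 0.05 (−0.24 to 0.34). RELA was at 0.12 (−0.08 to 0.33). Of the inhibitors, NFKBIB was at −0.01 (−0.18 to 0.16), NFKBIE at −0.02 (−0.15 to 0.11) and NFKBIZ at −0.15 (−0.37 to 0.08). The median was −0.01 over the 9 members and 0.01 over all genes.

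**Figure D3:**
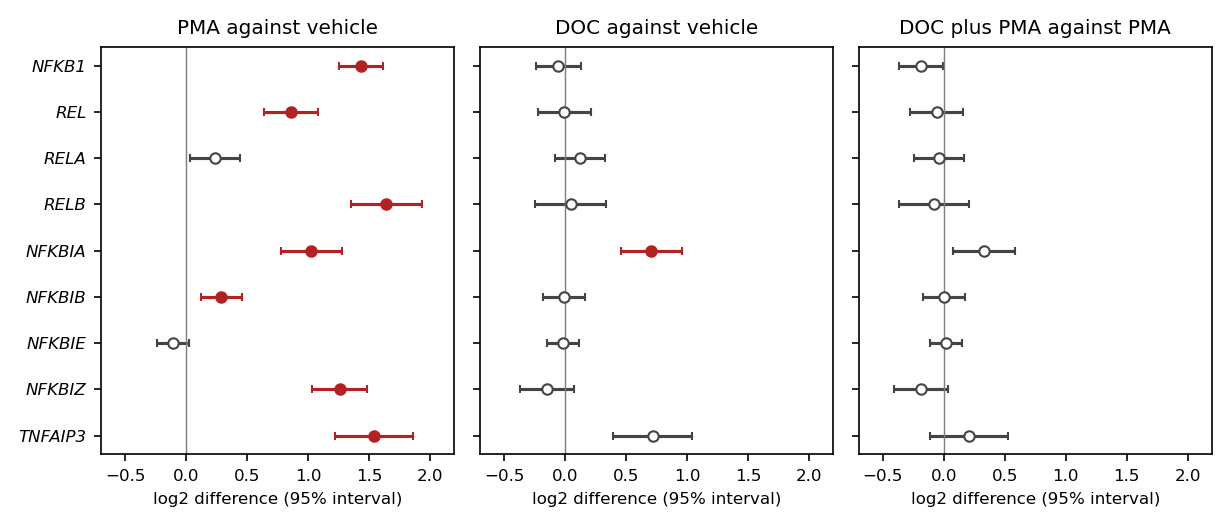
Log2 difference with its 95% interval (x axis) for each tested member (y axis) in 3 comparisons; filled red points passed at an adjusted p under 0.05. PMA against vehicle has 7 filled points, DOC against vehicle has NFKBIA, and DOC plus PMA against PMA has 0.

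DOC plus PMA against PMA asked what the steroid did in cells also exposed to the phorbol ester. None of the 9 members passed in limma, where 0.384% of all genes were called in either direction. At an unadjusted p under 0.05 there were 2 members, NFKB1 and NFKBIA, and 4.35% of all genes. NFKBIA signals were 8.70, 8.43, 8.33 and 8.32 with both agents. They overlapped the PMA range of 7.96 to 8.41, and the difference was 0.33 ± 0.12 (95% interval 0.08 to 0.58, adjusted p = 0.779). TNFAIP3, at 7.97, 7.81, 7.38 and 7.57 with both, differed from PMA by 0.21 ± 0.15 (95% interval −0.12 to 0.53). NFKB1, at 8.80, 8.77, 8.51 and 8.65, lay 0.19 lower (−0.19 ± 0.09, unadjusted p = 0.0467, adjusted p = 1.00), and the arrays overlapped. NFKBIZ was also at −0.19 ± 0.11. RELB at −0.08, REL at −0.06 and RELA at −0.04 differed by less than 1 SE. In 0 of the 9 members did these groups not overlap, against 2.73% of all genes. Arrays of the same replicate number, which deviated together in these groups, differed in one direction in all 4 pairs for 3 of the 9 members and for 17% of all genes. DOC plus PMA minus PMA was 0.28, 0.47, 0.22 and 0.34 for NFKBIA, and 0.25, 0.10, 0.11 and 0.36 for TNFAIP3. For NFKB1 it was −0.24, −0.20, −0.14 and −0.16. With the replicate number as a block on these 8 arrays none of the 3 passed (limma, adjusted p = 0.0913 for NFKBIA, 0.383 for TNFAIP3 and 0.346 for NFKB1).

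The interaction is the DOC difference with PMA minus that without. It was called for 0 of 9 members in limma (0.088% of all genes). At an unadjusted p under 0.05 there were 2 members, the pair whose DOC arrays lay above vehicle, and 2.96% of all genes. NFKBIA was at −0.38 ± 0.17 (95% interval −0.73 to −0.02, unadjusted p = 0.0373) and TNFAIP3 at −0.51 ± 0.22 (95% interval −0.97 to −0.06, unadjusted p = 0.0293), both at an adjusted p of 1.00. The other 7 ran from −0.16 to 0.04. A smaller DOC difference in the presence of PMA was therefore not shown for either gene.

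The DOC main effect, the mean of the DOC differences with and without PMA, used all 16 arrays. NFKBIA rose by 0.52 ± 0.08 (adjusted p = 0.00439) and was the 1 member called, against 0.408% of all genes called higher. Without the 3 arrays that deviated together NFKBIA was at 0.47 and did not pass (adjusted p = 0.0545). TNFAIP3 was at 0.46 ± 0.11 and did not pass (adjusted p = 0.0880). It passed under 2 of 23 alternatives, among them the fit without DOC plus PMA replicate 3 (0.51, adjusted p = 0.0409). The alternatives ran from 0.37 to 0.51. In the limma fit to probe sets the second TNFAIP3 probe set was at 0.285 (adjusted p = 0.936). NFKBIZ at −0.17 ± 0.08 and NFKB1 at −0.12 ± 0.06 had the lowest values, neither past the threshold.

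With both agents against vehicle, 7 members rose, where 17.5% of all genes were called higher. The 7 were those that rose with PMA. TNFAIP3 had the largest difference, 1.74 ± 0.15 or 3.35-fold, followed by RELB at 1.56 ± 0.14 and NFKBIA at 1.35 ± 0.12 or 2.56-fold. NFKB1 was at 1.25 ± 0.09, NFKBIZ at 1.07 ± 0.11, REL at 0.80 ± 0.10 and NFKBIB at 0.29 ± 0.08. RELA at 0.20 (adjusted p = 0.116) and NFKBIE at −0.09 did not pass. RELA passed with a common median (0.26, adjusted p = 0.0464), without the 3 arrays that deviated together (0.18, adjusted p = 0.0331) or without PMA replicate 2 (adjusted p = 0.0481). Of all called genes in this comparison 39.9% were higher in the deposited values and 53.8% with a common median.

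Against DOC alone, DOC plus PMA raised 7 members too (15.7% of all genes were called higher). NFKBIA rose by 0.65 ± 0.12 (adjusted p = 0.000250) and TNFAIP3 by 1.02 ± 0.15 (adjusted p = 2.88e-05). RELB at 1.51 ± 0.14, NFKB1 at 1.30 ± 0.09 and NFKBIZ at 1.22 ± 0.11 rose as well. These comparisons share arrays with those above, so they do not count as further evidence.

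The order of the 4 treatments differed among members. For NFKBIA the means rose from vehicle at 7.09 ± 0.16 (SD, n = 4) through DOC at 7.80 ± 0.20 and PMA at 8.11 ± 0.21 to both at 8.44 ± 0.18, and the last 3 overlapped with their neighbours. TNFAIP3 had the same order, with 5.94 ± 0.22, 6.66 ± 0.24, 7.48 ± 0.28 and 7.68 ± 0.26, and overlap only between PMA and both agents. NFKB1, REL, RELB and NFKBIZ fell into 2 levels, vehicle with DOC below and PMA with both agents above, with overlap inside each level and none between them. NFKBIB had these overlaps between neighbours too, but its highest DOC array lay within the ranges of PMA and of both agents. NFKB1 for example had 7.38 ± 0.03 with DOC, 7.44 ± 0.12 with vehicle, 8.68 ± 0.13 with both and 8.87 ± 0.17 with PMA. RELA and NFKBIE had overlap at every step of the order.

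Likeness of pattern was measured as the root mean square difference of the 4 treatment means on the log2 scale, each gene centred on its own mean, against 12486 other genes. Nearest to NFKB1 were BMP2 at 0.016, FHL2 at 0.031 and AGO2 at 0.032, and nearest to RELB were RAI2 at 0.020, GJA3 at 0.023 and CDO1 at 0.027. NFKBIZ was nearest to RNF24 at 0.036, NFIL3 at 0.038 and TGFB1 at 0.040. NFKBIA and TNFAIP3 had no neighbour as close. NFKBIA was nearest to RASD1 at 0.127, CEBPD at 0.133 and SNAI2 at 0.163. TNFAIP3 was nearest to KLHL10 at 0.195, IFNL1 at 0.196 and ITPRIP at 0.198. With PMA and with DOC, RASD1 was at 0.96 and 0.53 against vehicle, and CEBPD at 0.88 and 0.40.

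The rest of the pathway was read from 4 further lists, ordered from receptors to targets, whose counts stand beside 17.7% of all genes called higher and 29.3% called lower with PMA. Of 19 ligands and receptors 10 were tested, and 4 rose and 1 fell with PMA (median 0.11, against −0.04 over all genes). TNFRSF12A, the receptor for the cytokine TWEAK, rose by 3.09 ± 0.13 (adjusted p = 1.66e-12). IL1R1, the interleukin-1 receptor, rose by 0.97 ± 0.15 from a dim vehicle mean of 3.06, its partner chain IL1RAP by 0.50 ± 0.09 and the TNF receptor TNFRSF1B by 0.41 ± 0.09. IL1R1 had means of 3.15 with DOC, 4.02 with PMA and 4.28 with both. A gene bright enough only with PMA could pass the filter, and one dim in every group could not. The count and median of this list can therefore favour genes that PMA raised.

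Of 25 genes of the IKK complex and its adaptors 21 were tested, and 8 rose and 5 fell with PMA (median 0.07), where 17.7% of all genes rose and 29.3% fell. MAP3K14, the NIK kinase of the non-canonical pathway, rose by 1.58 ± 0.10 (adjusted p = 1.01e-09). BCL10, the adaptor that links protein kinase C to IKK, rose by 1.55 ± 0.08. TRADD, an adaptor of the TNF receptor, fell by 1.01 on the log2 scale (SE 0.09), and the IKK-related kinase TBK1 fell by 0.87 (SE 0.07). Of 18 other inhibitors 17 were tested, and 4 rose and 3 fell (median 0.04), which is near those shares. The deubiquitinase CYLD rose by 0.77 ± 0.07 and the ribonuclease ZC3H12A by 0.66 ± 0.12. PDLIM2, a ubiquitin ligase for RELA, fell by 0.62 (SE 0.08) and NFKBIL1 by 0.64 (SE 0.09).

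Of 30 genes known as NF-kB targets 19 were tested, and 15 rose, 1 fell and 3 did not pass with PMA (median 1.92). Many of them are also targets of AP-1 and other factors. A target bright only with PMA could pass the filter, which needs 4 arrays, and one dim in every group could not. PTGS2, for example, had means of 3.28 in vehicle, 3.14 with DOC and 7.37 with PMA. The 15 of 19 and the median can therefore favour targets that PMA raised. CXCL8, the chemokine interleukin-8, rose by 6.45 ± 0.16, F3, which encodes tissue factor, by 4.33 ± 0.15, PTGS2, the inducible cyclooxygenase, by 4.10 ± 0.11, GADD45B by 3.60 ± 0.08 and SDC4 by 2.76 ± 0.08. The gene that fell, named after its value was seen, was the survival gene BCL2L1 at −0.51. None of the genes in these 4 lists passed in limma for DOC against vehicle, DOC plus PMA against PMA or the interaction. F3 was the only one past the threshold for the DOC main effect, at 0.61 ± 0.10 (adjusted p = 0.00588). For DOC plus PMA against PMA, PTGS2 was at −0.45 ± 0.11 and lay below all PMA arrays (limma, adjusted p = 0.101). In the other direction, TBK1 was at 0.24 ± 0.07 and lay above all PMA arrays (adjusted p = 0.294). F3 was at 0.61 ± 0.15, with overlap (adjusted p = 0.104). None of these passed, and the arrays of these groups did not overlap in 2.73% of all genes.

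**Figure D4:**
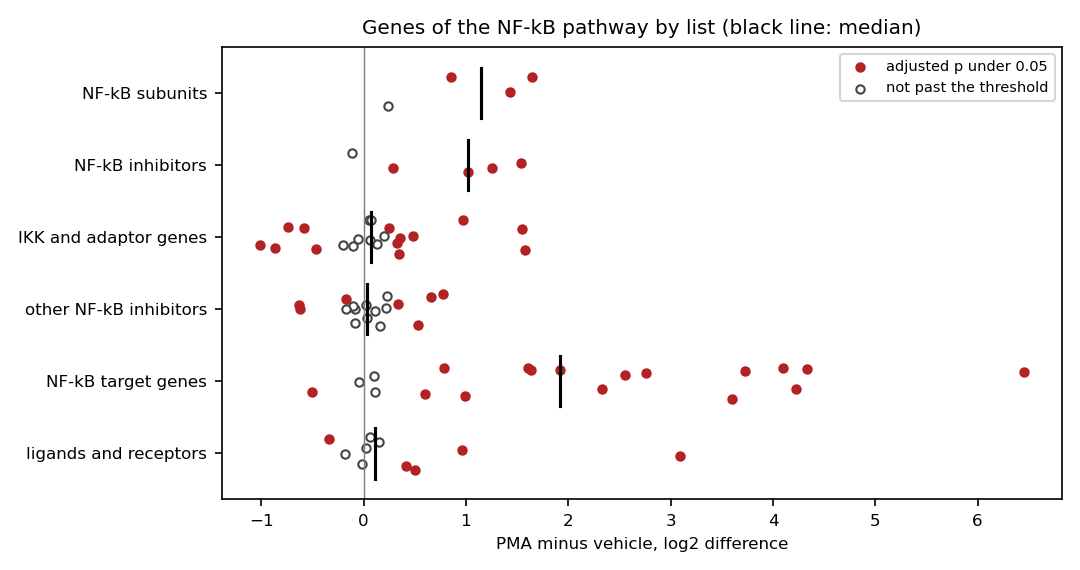
Log2 difference of PMA from vehicle (x axis) for each tested gene of the NF-kB subunits, the inhibitors and 4 further pathway lists (y axis); filled points passed at an adjusted p under 0.05 and black lines are list medians. The target list has the highest median, 1.92, and the receptor, IKK and other inhibitor lists have medians of 0.04 to 0.11. In every list the filter can favour genes that are bright only with PMA.

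Markers of other cell types were read beside the PMA rises, since several members are abundant in leukocytes and endothelium. Of 6 leukocyte markers 2 were tested and both rose with PMA, CORO1A by 0.40 and CD68 by 0.43, and the summed linear signal of the 6 ran from 69.3 to 78.7 in vehicle and from 84.1 to 91.3 with PMA. None of the 6 lay above the array median on every array. The PMA and vehicle arrays overlapped for CD68 and not for CORO1A. Of 6 endothelial markers 4 were tested, 3 rose and 1 fell (PECAM1 rose by 0.30, TIE1 by 0.47 and ESAM by 0.23, and EGFL7 was at −0.19). The sum of the 6 ran from 125.0 to 136.2 in vehicle and from 135.2 to 147.4 with PMA. EGFL7 alone of these 6 lay above the array median on every array. Over all genes 17.7% were called higher with PMA and 29.3% lower. None of the 3 tested fibroblast markers of 6 passed, with sums of 73.0 to 81.7 and 77.5 to 84.5. The other 4 leukocyte markers (PTPRC, CD14, CD3E and LYZ) and the other 2 endothelial markers (CDH5 and KDR) did not pass the filter, with PTPRC at a mean of 2.18 and CDH5 at 3.06 over all arrays. The part of these markers in the members' rises was not tested.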

How the data were processed

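RNA of each sample was hybridised to 1 array, 16 in all. The authors deposited log2 signals, which the submitters' processing notes credit to RMA and to Expression Console. Their versions and the genome build were not given in the sources used here. The value table held 0 columns beyond these arrays. RMA aligns the probe signals of all arrays before summary, so a shift shared by most transcripts would largely be removed. P-values measure the spread between arrays that the labels call biological replicates.

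Of 49293 probe sets, 44988 had 1 gene in the platform annotation, 1832 several and 2473 none, and 44961 matched a current RefSeq gene by identifier. Probe sets at or above the 40th percentile of their array in at least 4 arrays were kept (30613), and each gene was represented by its kept single-gene probe set with the highest mean (12495 genes). Of these, 7495 had several. Group means were fitted to all 16 arrays with lmFit and eBayes in limma 3.58.1 under R 4.3.3, and p-values were adjusted by Benjamini-Hochberg over all genes, two-sided. Errors of differences are SE from this fit. The number of arrays limits precision: the median SE of a difference was 0.0879 for 2 groups.

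The fit was tested on simulated data before use.

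Replicate numbers were taken to pair PMA with DOC plus PMA arrays, from the data alone, since deviations from the group means correlated at 0.157 to 0.549 in all 4 pairs. No other 2 groups had all 4 above 0.1. The main fit did not use the numbers.

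The members, gene lists, and the alternative without 3 arrays were chosen with earlier results of these data known. All members are named. Of each other list, the up to 4 called genes with the smallest PMA p are named, with any gene called for a DOC comparison, and the 3 nearest patterns are given for 5 members. Alternatives were averaged probe sets, other filters and scalings, replicate blocks and each array left out.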

Additional observations from a re-analysis of the deposited data

How the results depend on the processing

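The 63 results for single members (9 genes in 7 comparisons) were recomputed under up to 24 alternatives, 1458 values in all. Of these, 1440 stayed on their side of the threshold, 6 lost the call, 12 gained it and 0 called differences changed sign. Among uncalled differences, 64 changed sign. The calls lost or gained were of NFKBIA, TNFAIP3 and RELA alone. For DOC against vehicle, the count of members called was 1, and it was 2 with the replicate block over all arrays, 0 without the 3 arrays that deviated together, and 0 to 1 with single arrays left out. For the DOC main effect the count of 1 became 2 with the block, 0 without the 3 arrays and 1 to 2 with single arrays left out. In both, the block added TNFAIP3 (adjusted p = 0.0374 and 0.0268). The block also brought RELA past the threshold for PMA against vehicle (adjusted p = 0.0435), and it changed no other call of a member. Deviations of vehicle and DOC arrays with the same number correlated at −0.01 to 0.24, and 3 of the 4 pairs exceeded 0.1. Whether these arrays were handled in pairs was not tested. The TNFAIP3 calls gained with the block are therefore not read as a stronger effect. With the block on the 8 arrays of PMA and DOC plus PMA, 0 members were called for that comparison, the nearest being NFKBIA (0.33, adjusted p = 0.0913). Counts for the other comparisons and for the member probe sets stayed within 1.5 times under every alternative run. Array signal limits NFKB2 and the dim RELA probe sets, which could not be tested.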
